A study of Mus musculus with 36 samples.

Results

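The regions described here were 557 DNase hypersensitive sites (DHS, stretches of open chromatin where the enzyme DNase I can reach the DNA) whose level was lower in the Ikaros line than in the control line at 12, 18 and 24 h. They were chosen by those values from a table of 52788 DHS under one rule, namely that the mean of the 3 Ikaros libraries minus the mean of the 3 Control libraries was -0.6 or less on the log2 scale at each of the 3 times, and they made up 1.06% of the table. Since these differences chose the members, they are given as a description with no test, and only differences among the 0, 2 and 6 h libraries were tested. The fit behind these tests took its estimate of spread from all 12 groups, those of 12, 18 and 24 h included. Without these later groups, the members called lower in Ikaros fell from 26 to 12 at 0 h (from 5.04% to 1.27% of all DHS). At 2 h they fell from 9 to 0 (0.0246% to 0%) and at 6 h from 42 to 3 (0.155% to 0.00568%). The 5 members closest to the threshold had a smallest of the 3 drops between -0.6005 (Ssbp2, exon) and -0.6012 (near Slc34a1), and the 5 DHS just outside it lay between -0.5995 (near Txndc16) and -0.5990 (near Ppia).

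The study followed B3, a mouse pre-B cell line, over 24 h by DNase-seq, which sequences the ends left by DNase I in open chromatin. One line was transduced with a retroviral (MSCV) vector for HA-tagged Ikaros fused to the hormone-binding domain ERt2, followed by IRES-GFP, and the other with the same kind of vector carrying ERt2-IRES-GFP without Ikaros. Both were given 0.5 µM 4-hydroxytamoxifen (4-OHT), the ligand that carries an ERt2 fusion into the nucleus, and collection took place at 6 times (0, 2, 6, 12, 18 and 24 h), which gave 12 groups of 3 libraries and 36 libraries in all. By the labels, replicates 4, 5 and 6 were batches 11, 12 and 13 at all 6 times. The labels name 4-OHT for the 0 h samples as well, whereas the methods of the study state that 0 h cells received none and were collected apart from the rest. The fusion protein was driven by the viral vector in pools of cells sorted for GFP, in a single parental cell line. The 2 transduced lines are separate pools, so at any one time a difference between the pools and an effect of the fusion protein cannot be told apart.

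Ikaros, encoded by Ikzf1, is a zinc finger transcription factor of lymphocytes that binds DNA at sites with a TGGGAA core and can recruit chromatin remodelling and deacetylase complexes. In large pre-B cells its rise accompanies the exit from Il7-driven division and the passage to the small pre-B stage, in which immunoglobulin light chain genes are rearranged. A DHS marks a promoter, enhancer or other element from which nucleosomes have been displaced, often by several factors bound side by side, and Ebf1, E proteins, Ets factors, Runx factors and Pax5 are among those that open such elements in B-lineage cells. In a bulk library, fewer cells with an open site and less opening in each cell cannot be told apart.

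Of 7 genes that mark pre-B lymphocytes, 6 had a DHS within 1000 bp of a transcription start site (TSS), at levels from 5.06 to 5.99. Among 11 markers of other cell types, Lyz2 (3.29) and Klf1 (4.58) had one. Library medians over all DHS lay between 3.90 and 4.11. At 12 to 24 h the spread of levels over all DHS within a library was narrower in the Ikaros libraries (SD from 0.612 to 0.761) than in the Control libraries (SD from 0.836 to 0.993), and over all DHS the line difference moved with level and base composition. At 24 h its median was 0.40 in the lowest of 5 equal groups of DHS by mean level and -0.12 in the highest, where the members were also most frequent (2.28 per 100 DHS against 0.104 per 100 in the lowest group). With these trends removed from each library, the rule gave 861 members, 354 of them among the 557. The authors' noise filter also left the 12 group means in 6 dimensions, so that the values of one time borrow from those of the others and the 0, 2 and 6 h libraries are not fully independent of the rule.

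Sequences of 10 members are shown because these are the regions to which the values below refer. They were read from the RefSeq copy of GRCm38.p6 (mm10) on the plus strand, 5′ to 3′, and capitals mark every match to the motif named with the entry, on either strand. The first pair hold the palindrome associated with Ebf1 near their centre.
4930470P17Rik intron, chr2:170583305-170583435, EBF palindrome in capitals: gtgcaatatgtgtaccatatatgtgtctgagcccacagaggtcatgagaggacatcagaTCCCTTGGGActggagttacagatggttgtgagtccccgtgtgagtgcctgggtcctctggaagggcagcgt
1700113H08Rik intron, chr10:87098887-87099017, EBF palindrome in capitals: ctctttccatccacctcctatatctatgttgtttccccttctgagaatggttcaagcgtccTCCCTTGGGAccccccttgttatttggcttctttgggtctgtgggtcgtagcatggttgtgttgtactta
The next entries hold the Ikaros core TGGGAA or its reverse complement, the first beside Cish and the second at the Rnf150 promoter, where the match shares bases with a CCAAT box (CCAAT).
Near Cish, chr9:107294362-107294505, Ikaros core in capitals: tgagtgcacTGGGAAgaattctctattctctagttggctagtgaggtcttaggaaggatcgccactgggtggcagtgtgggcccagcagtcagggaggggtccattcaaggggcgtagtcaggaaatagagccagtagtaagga
Rnf150 promoter, chr8:82863142-82863273, Ikaros core in capitals: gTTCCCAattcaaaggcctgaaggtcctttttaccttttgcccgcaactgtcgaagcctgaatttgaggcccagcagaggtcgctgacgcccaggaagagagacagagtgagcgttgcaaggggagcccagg
Members near Crisp1 and Xpr1 and in Tbc1d16, which are among the 5 with the lowest p at 6 h, follow, with a Runx motif (TGTGGT), an AP-1 motif (TGANTCA) or none of the 14 motifs searched.
Near Crisp1, chr17:40342575-40342716, Runx motif in capitals: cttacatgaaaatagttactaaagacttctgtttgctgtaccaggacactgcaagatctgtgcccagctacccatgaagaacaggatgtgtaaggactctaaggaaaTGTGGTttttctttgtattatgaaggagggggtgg
Near Xpr1, chr1:155472723-155472853, AP-1 motif in capitals: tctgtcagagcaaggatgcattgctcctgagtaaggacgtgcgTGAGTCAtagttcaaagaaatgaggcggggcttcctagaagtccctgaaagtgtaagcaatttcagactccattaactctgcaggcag
Tbc1d16 intron, chr11:119191862-119191999, none of the motifs: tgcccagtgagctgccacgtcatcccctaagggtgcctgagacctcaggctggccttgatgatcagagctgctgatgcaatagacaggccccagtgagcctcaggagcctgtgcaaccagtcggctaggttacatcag
The promoters of Mycn and Pax5 and an intergenic member 10065 bp from Pim1, genes of B-cell growth and identity, complete the set, with the Sp/Klf box (GGGCGG) or the USF/Myc E-box (CACGTG).
Mycn promoter, chr12:12941916-12942047, Sp/Klf box in capitals: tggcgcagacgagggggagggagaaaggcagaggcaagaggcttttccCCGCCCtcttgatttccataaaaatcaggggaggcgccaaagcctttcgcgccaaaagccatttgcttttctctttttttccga
Pax5 promoter, chr4:44710639-44710895, Sp/Klf box in capitals: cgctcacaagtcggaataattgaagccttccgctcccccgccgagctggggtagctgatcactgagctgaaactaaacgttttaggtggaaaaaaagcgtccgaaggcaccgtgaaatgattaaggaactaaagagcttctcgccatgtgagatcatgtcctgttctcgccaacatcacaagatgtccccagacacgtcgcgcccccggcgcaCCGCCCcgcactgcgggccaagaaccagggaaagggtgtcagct
Near Pim1, chr17:29503472-29503602, USF/Myc E-box in capitals: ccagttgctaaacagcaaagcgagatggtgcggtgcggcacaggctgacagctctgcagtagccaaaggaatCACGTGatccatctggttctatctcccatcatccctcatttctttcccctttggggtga

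The members were mostly narrow regions spread over promoters, introns and the space between genes, with a median GC content above that of all DHS. A width of 200 bp or less was found for 421 members (75.6%) against 46.1% of all DHS, and the median width was 140 bp against 500 bp. By GENCODE vM21, 144 members (25.9%, 95% Wilson interval 22.4 to 29.6%, covering counting error only) lay within 1000 bp of a TSS, the same share as among all DHS (25.9%). A further 34 overlapped an exon, 202 lay in introns and 177 between genes. Among narrow DHS, promoters held 2.84 members per 100, introns 1.51 and intergenic DHS 1.55. The mirror group of 3106 DHS that were 0.6 or more higher in Ikaros at the same 3 times was also narrow (71.1%), but 7.31% of it lay at promoters. Median GC content was 53.5% in the members, 50% in all DHS and 42.7% in the mirror group. Protein-coding TSS lay within 10000 bp of 284 members (51.0%), of 41.5% of all DHS and of 20.5% of the mirror group. Repeat-masked bases made up 50% or more of 74 members (13.3%), against 5.52% of all DHS. No test was run on these shares.

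**Figure D1:**
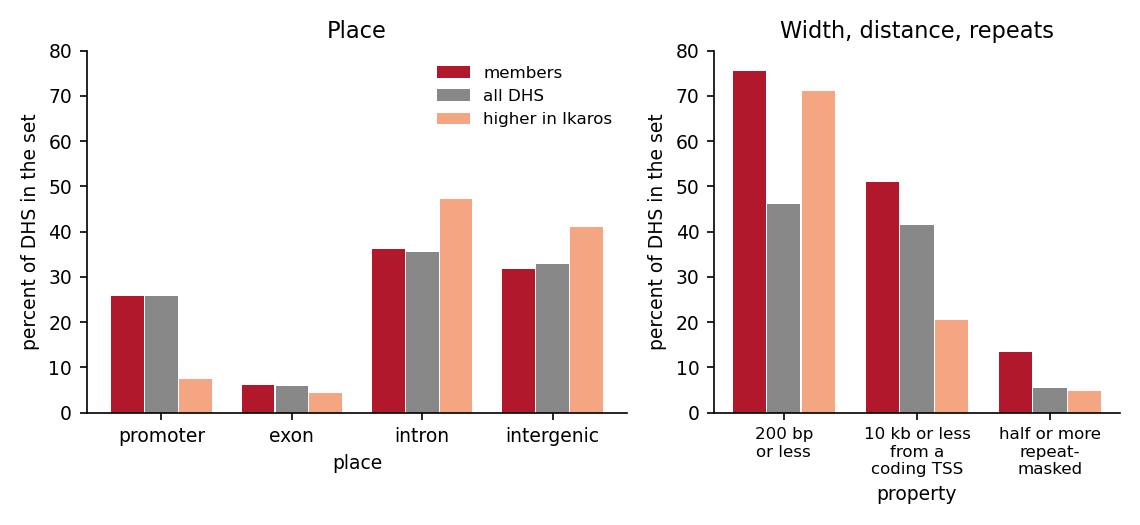
Percent of DHS (y axis) by place (left) and by width, distance to a coding TSS and repeat content (right) for the 557 members, all 52788 DHS and the 3106 DHS higher in Ikaros at 12, 18 and 24 h. The members match all DHS in their promoter share (25.9% in both), while 75.6% of them against 46.1% of all DHS are 200 bp or narrower.

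Members were found on every autosome and on both sex chromosomes. Chromosome 11 held 60 of them (1.51 per 100 DHS) and chromosome 17 held 41 (1.76 per 100), whereas chromosome X held 2 of its 1136 DHS and chromosome 9 held 17 (0.570 per 100). Chromosome Y held 2 of its 30 DHS (6.67 per 100). Another member lay within 10000 bp of 45 members and within 100000 bp of 165. The nearest protein-coding genes numbered 514, of which 35 had 2 or more members and 7 had 3 or more. Tbc1d16, a GTPase-activating protein of membrane traffic, had 4 of its 10 DHS among the members, all within an intron stretch from chr11:119159381 to 119191999. Zfand3 had 3 of 13, Trim27 (a RING-type ubiquitin ligase) 3 of 10, 2410131K14Rik 3 of 12, Cxxc5 (a CXXC zinc finger protein) 3 of 17 and Sept9 (a septin of the cytoskeleton) 3 of 32. On chromosome 17 a promoter member covered the TSS of Tnf, and in the histone cluster of chromosome 13 the promoters of the H4 genes Hist1h4j and Hist1h4k were members. H4 genes are near-identical copies in their coding parts, so reads at these promoters may be placed with some uncertainty.

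As a set, the members started close to all DHS in the line difference, whereas promoter members started lower than all promoter DHS. At 0 h the median difference between the lines was -0.07 over the members and -0.06 over all DHS, and 317 of 557 members were below 0. The member median then stood at -0.51 by 2 h (510 members below 0) and at -0.61 by 6 h (536 below 0), while over all DHS it was 0.01 and 0.00. In the highest of 5 equal groups of DHS by mean level, the median was 0.25, -0.09 and -0.06 at 0, 2 and 6 h. In the highest such group by GC content it was 0.43, 0.00 and 0.12. At promoters the 0 h median was 0.06 over the members and 0.34 over all DHS. In exons, introns and between genes it was -0.03, -0.17 and -0.09 over the members. Over all DHS of these places it was -0.20, -0.19 and -0.19. The mean SD of levels within a library was 0.957 in Ikaros and 0.763 in Control at 0 h, and 0.716 and 0.973 at 2 h. At the times of the rule the member median was -0.77, -0.77 and -0.85. The median level of the members in the Control line was 4.64, 4.83, 4.87, 4.94, 4.96 and 4.93 from 0 to 24 h, and in the Ikaros line 4.48, 4.26, 4.17, 4.13, 4.11 and 4.03. Both lines moved, the Control line up from its 0 h level and the Ikaros line down. By the methods, the 0 h cells were collected apart and without 4-OHT. Time, drug and separate collection thus cannot be told apart in changes from 0 h. At 24 h, 435 members (78.1%) had an Ikaros mean below and a Control mean above the 0 h mean of the same line, against 25.7% of all DHS, which the rule favours. All 9 Ikaros values of 12 to 24 h lay below all 9 Control values in 276 members (49.6%), compared with 1.77% of all DHS, and this again follows from the selection.

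**Figure D2:**
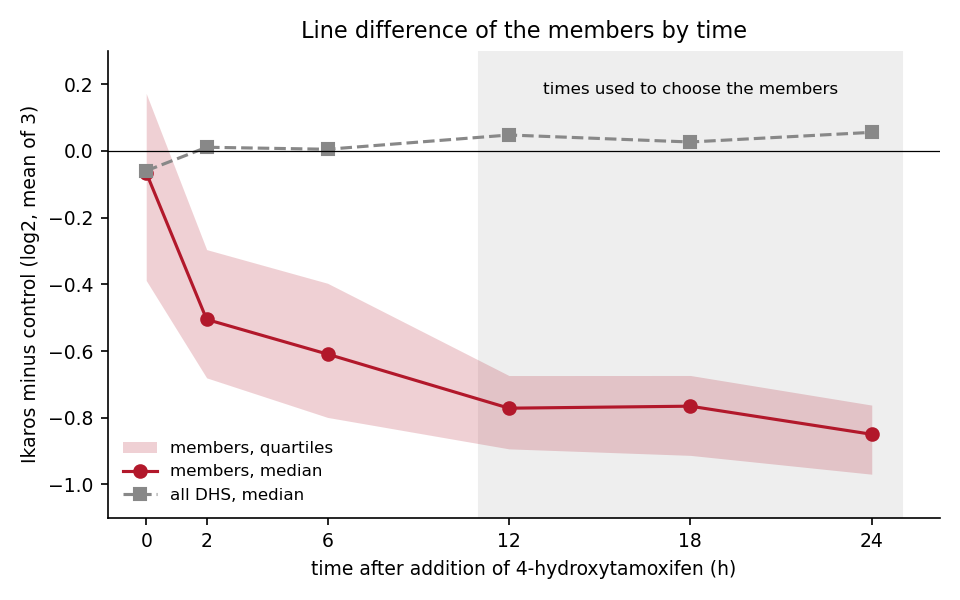
Ikaros minus Control difference (y axis, log2, means of 3 libraries) at the 6 times (x axis, h) for the members (red line, median; band, quartiles) and all DHS (grey, median), with the times used by the rule shaded. The member median passes from -0.07 at 0 h to -0.51 at 2 h and -0.61 at 6 h, while the median of all DHS stays between -0.06 and 0.06.

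Single libraries showed the same order at 2 and 6 h and overlap at 0 h. The median over the members was 4.57 to 4.86 in the 3 Control libraries of 0 h and 4.46 to 4.65 in the 3 Ikaros libraries of 0 h. At 2 h the Control libraries stood at 4.80 to 4.95 and the Ikaros libraries at 4.26 to 4.31, and at 6 h at 4.87 to 4.92 and 4.18 to 4.26. Hence the 2 lines did not overlap from 2 h on in this median, and no library of either line stood between the groups. Counted member by member, all 3 Ikaros values lay below all 3 Control values in 54 members at 0 h (background over all DHS 11.2%), in 239 at 2 h (background 7.07%) and in 331 at 6 h (background 10.9%). As stated above, these times are not fully independent of the rule.

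**Figure D3:**
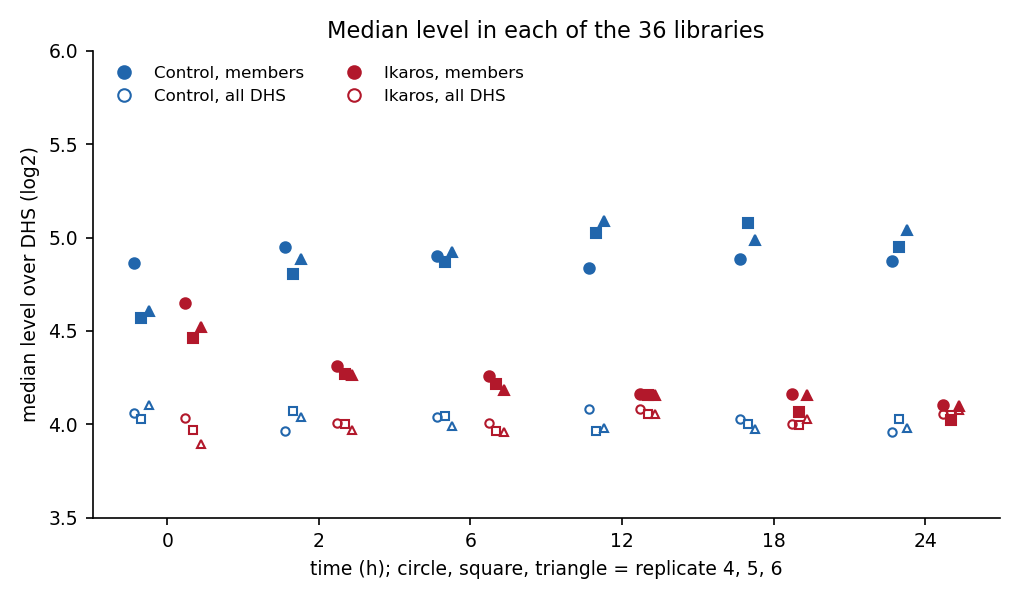
Median level (y axis, log2) over the 557 members (filled) and over all DHS (open) in each of the 36 libraries, by time (x axis, h), with Control in blue and Ikaros in red. Control and Ikaros medians of the members overlap at 0 h and lie apart from 2 h on, whereas the medians of all DHS stay between 3.90 and 4.11.

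At 0 h the limma test across all 52788 DHS (Benjamini-Hochberg adjusted p under 0.05) called 26 members lower in Ikaros (5.04% of all DHS were called lower) and 17 higher (7.81% of all DHS). The share of members called lower (4.67%) was near its background, and the share called higher (3.05%) was below it. At promoters, 4.86% of members and 1.22% of all DHS were called lower, and 7.64% and 24.8% were called higher. With the replicate number as a block, 22 were called lower (4.41% of all DHS) and 8 higher. For the latter the share over all DHS was not computed. A difference of -0.6 or less was found at 0 h in 74 members (13.3%, against 16.2% of all DHS), and one of 0.6 or more in 40 (7.18%, against 10.7%). The 26 called lower ranged from -1.55 to -0.63 at 0 h and all 26 were below 0 at 6 h, with a median of -0.94. The lowest was the Fam234a promoter (-1.55 ± 0.30 SE, adjusted p = 0.00141), followed by a DHS of chromosome 14 whose nearest coding gene, Dad1, began 656346 bp away (-1.43 ± 0.46, adjusted p = 0.0382). The 17 called higher at 0 h included 11 promoters, among them Egr1 (0.46), Slc3a2 (0.59) and Socs2 (0.86), and 16 of the 17 were below 0 at 6 h, where their median was -0.42. Fam234a, Dad1 and Egr1 were named after their values were seen.

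Among the members named by rule, 3 promoters were called higher in Ikaros at 0 h. At the Hist1h4k promoter (chr13:21750475-21750676), one of the replication-dependent histone H4 genes, the Ikaros libraries of 0 h read 5.85, 5.70 and 5.69 and the Control libraries 5.36, 4.67 and 4.04, a difference of 1.06 ± 0.22 (SE, adjusted p = 0.00286). All 3 Ikaros values lay above the Control values, which were themselves spread over more than 1 log2 unit. By 6 h the order had turned, with 5.06, 5.11 and 4.96 in Ikaros against 5.66, 5.14 and 5.60 in Control (-0.42 ± 0.22, adjusted p = 0.40). The groups did not overlap at 6 h, but the test was not passed. The Socs2 promoter (chr10:95416660-95417183), at the gene for a feedback inhibitor of cytokine signalling, read 4.99, 5.13 and 4.97 in Ikaros and 4.27, 4.51 and 3.74 in Control at 0 h (0.86 ± 0.23, adjusted p = 0.0135). With trends by GC content, width and level removed, this difference was 0.17 (adjusted p = 0.638) and the call was lost, and it was also lost without Control replicate 6 of 0 h (0.64, adjusted p = 0.119). Its 6 h values were 4.26, 4.55 and 4.69 in Ikaros and 4.82, 4.91 and 4.93 in Control (-0.39 ± 0.23, adjusted p = 0.466). The Exd1 promoter, which began at 0.99 (adjusted p = 0.0455, and 0.0517 with the block), stood at -0.95 at 2 h and -0.05 at 6 h, neither called. Its 0 h difference was 0.65 (adjusted p = 0.249) without Ikaros replicate 4 of 0 h.

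**Figure D4:**
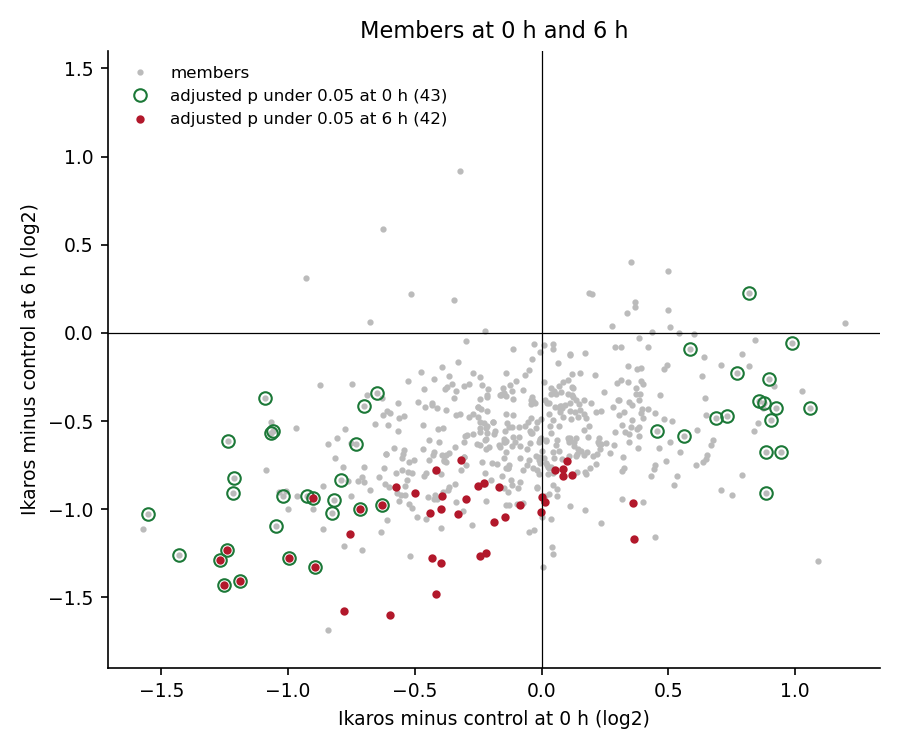
Ikaros minus Control difference of each of the 557 members at 0 h (x axis, log2) and 6 h (y axis, log2), with rings for members with an adjusted p under 0.05 at 0 h (43) and red points for those at 6 h (42). Most members lie below 0 at 6 h (536 of 557) whatever their difference at 0 h, and the 42 called at 6 h spread from -1.27 to 0.37 at 0 h.

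At 2 h, 9 members were lower in Ikaros (0.0246% of all DHS, 13 in number, were called lower) and none was higher, with 1 member higher at an unadjusted p under 0.05. At 6 h, 42 members were lower (0.155% of all DHS, 82 in number), and none was higher at either the adjusted or the unadjusted level. An unadjusted p under 0.05 in the lower direction was reached by 246 members (44.2%) at 2 h and 311 (55.8%) at 6 h, compared with 3.92% and 5.71% of all DHS. These times are not fully independent of the rule, since the noise filter left the 12 group means in 6 dimensions. The spread in these tests also came in part from the 12, 18 and 24 h groups. Of the 9 members called at 2 h, 5 were called at 6 h (55.6% of the 9 and 11.9% of the 42). With the replicate number as a block, 3 members were called at 2 h (0.00947% of all DHS). The count at 6 h rested on few libraries. It was 9 without Ikaros replicate 5 or 6 of that time (0.0265% and 0.0208% of all DHS were called). It was 15 without Ikaros replicate 4 (0.0474%) and 23 without Control replicate 5 (0.0701%). The 3 members called without the 12, 18 and 24 h groups were those near Crisp1, Xpr1 and Gm11214.

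The 42 members called at 6 h had differences from -1.60 to -0.72 with a median of -1.0, and their median at 0 h was -0.36. They comprised 20 intergenic, 12 intronic, 8 promoter and 2 exonic DHS, and 14 of them had stood above -0.2 at 0 h. Of the 136 members over 200 bp, 19 (14%) were called, and of the 421 narrower ones 23 (5.46%), where 0.148% and 0.165% of all DHS of these widths were called. Of the 42, 9 had been called lower at 0 h as well, among them the DHS near Crisp1, 2 of the Tbc1d16 DHS, Gm11214 and 2 DHS near Parp11.

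The member near Crisp1, a gene for a secreted protein of the male reproductive tract whose TSS lay 23368 bp away, had the lowest p at 6 h. Its Ikaros libraries read 4.25, 3.83 and 4.26 at 0 h, 3.77, 4.41 and 3.88 at 2 h and 3.53, 4.06 and 3.94 at 6 h. In the Control libraries it read 5.39, 5.39 and 5.32, then 5.58, 5.00 and 5.58, then 5.29, 5.18 and 5.35. The lines did not overlap at any of these times, and the difference was -1.25 ± 0.21 (SE, adjusted p = 0.000629), -1.37 ± 0.21 (adjusted p = 0.0034) and -1.43 ± 0.21 (adjusted p = 0.000843). The region was lower in Ikaros from 0 h on. The same held for the intronic DHS of Tbc1d16 printed above, which read 4.11, 4.81 and 5.29 in Ikaros and 6.00, 5.48 and 5.72 in Control at 0 h. At 6 h its values were 4.93, 4.81 and 4.76 in Ikaros and 5.99, 6.14 and 6.21 in Control (-1.28 ± 0.21, adjusted p = 0.0034). The difference at 0 h was -1.0 ± 0.21 (adjusted p = 0.00308), and -0.55 (adjusted p = 0.0695) without replicate 4 of every group. A second Tbc1d16 intronic DHS (chr11:119162854-119163363) was called at 2 h (-0.77 ± 0.16, adjusted p = 0.0328, and 0.0541 with the block) and at 6 h (-0.72, adjusted p = 0.0302), but not at 0 h (-0.32, adjusted p = 0.186).

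Other members were called at 6 h but not at 0 h. Near Gata5, a gene for a zinc finger factor of heart and gut that lay 34707 bp away, the 6 h Ikaros values were 3.93, 3.96 and 4.04 and the Control values 5.24, 5.69 and 5.44. They gave a difference of -1.48 ± 0.24 (SE, adjusted p = 0.00271), against -0.42 (adjusted p = 0.254) at 0 h. Ikaros was below every Control library by more than 1 log2 unit. The member near Xpr1, which encodes a phosphate exporter, read 3.48, 3.70 and 3.36 in Ikaros and 5.17, 5.06 and 5.04 in Control at 6 h (-1.58 ± 0.27, adjusted p = 0.00407). At 0 h it had stood at -0.78 (adjusted p = 0.0527). A DHS of chromosome 13 with Gpx5 as its nearest coding gene, at 16654 bp, passed from 0.37 ± 0.23 at 0 h to -1.17 ± 0.23 at 6 h (adjusted p = 0.296 and 0.0122). It read 5.57, 4.71 and 4.75 in Control and 5.51, 5.17 and 5.44 in Ikaros at 0 h, and 6.04, 5.94 and 5.54 against 4.76, 4.51 and 4.74 at 6 h. At 0 h the groups overlapped, and at 6 h they did not.

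The 8 promoters called at 6 h included those of Faap20 and Tnf. The Faap20 promoter (chr4:155249179-155249763), at a gene of the Fanconi anaemia DNA repair pathway, read 5.83, 5.50 and 5.59 in Ikaros and 6.57, 6.23 and 6.29 in Control at 2 h (-0.72 ± 0.15, adjusted p = 0.0333, and 0.0554 with the block). At 6 h it read 5.58, 5.46 and 5.64 against 6.36, 6.37 and 6.29 (-0.78 ± 0.15, adjusted p = 0.0121). The lines were apart at both times. The Tnf promoter (chr17:35201968-35202170), at the gene for the inflammatory cytokine tumour necrosis factor, was named after its values were seen. It read 4.97, 5.63 and 5.70 in Ikaros and 5.76, 5.21 and 5.34 in Control at 0 h, with no difference in the means (0.00 ± 0.20). At 6 h it read 5.19, 4.76 and 5.01 against 5.94, 5.50 and 6.31 (-0.93 ± 0.20, adjusted p = 0.0276). A pair of members chosen in the same way also began near 0. One near Junb, a component of AP-1 (chr8:84981068-84981217), passed from -0.09 at 0 h to -0.98 ± 0.20 at 6 h (adjusted p = 0.0179), and one upstream of Lrrc32, which encodes a receptor that holds latent TGF-beta, from 0.05 to -0.78 ± 0.16 (adjusted p = 0.0179).

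**Figure D5:**
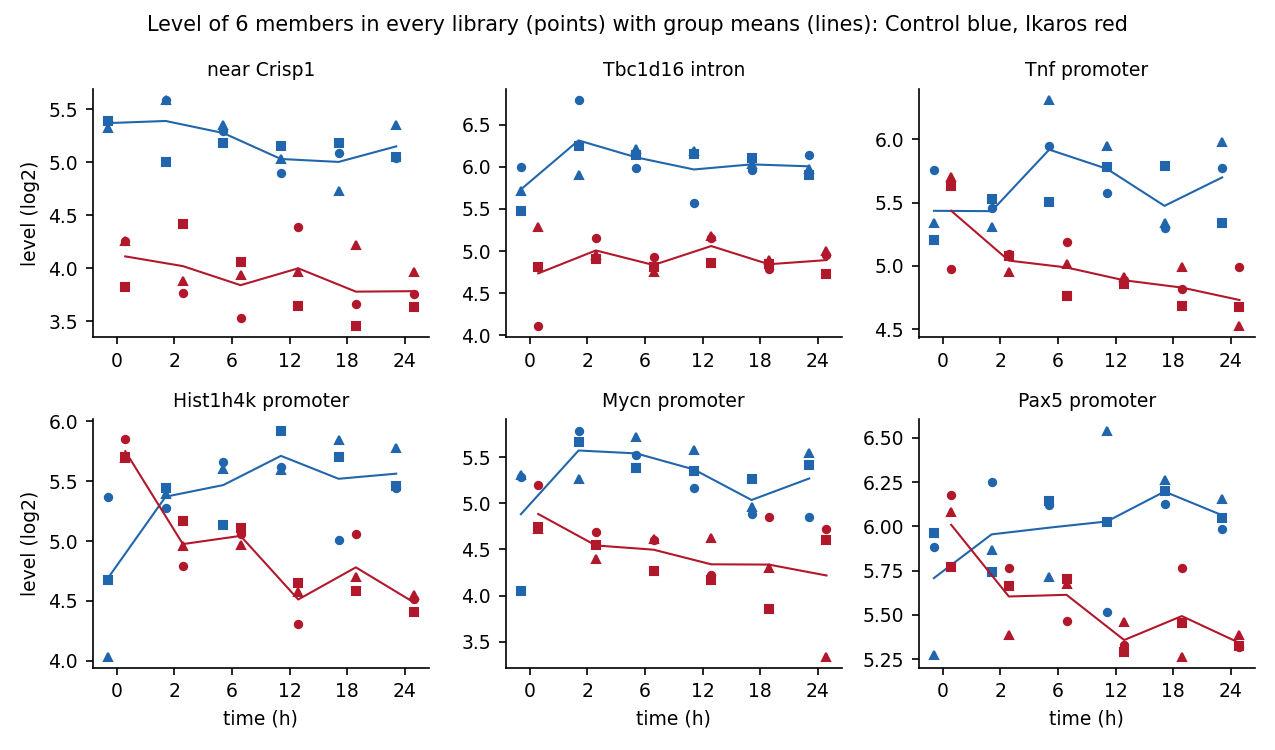
Level (y axis, log2) of 6 members in each library at the 6 times (x axis, h), Control in blue and Ikaros in red, with lines through the group means and circle, square and triangle for replicates 4, 5 and 6. The DHS near Crisp1 and in Tbc1d16 are lower in Ikaros at every time, the Tnf and Mycn promoters have equal means at 0 h (difference 0.00 in both), and the Hist1h4k promoter begins 1.06 higher in Ikaros.

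The members with the lowest mean difference at 12, 18 and 24 h were mostly intronic or intergenic DHS of 130 bp. An intronic DHS of 4930470P17Rik stood first, with differences of -1.50, -1.78 and -1.75 at the 3 times of the rule. It read 5.29, 5.21 and 4.95 in Control and 3.88, 4.74 and 4.68 in Ikaros at 0 h (-0.72 ± 0.24, adjusted p = 0.0419, and 0.0511 with the block), and 5.69, 5.08 and 5.37 against 4.21, 4.02 and 4.28 at 2 h (-1.21 ± 0.24, adjusted p = 0.0225). The lines did not overlap at either time, and without Ikaros replicate 4 of 0 h the first difference was -0.44 (adjusted p = 0.259). At 6 h the difference was -1.0 ± 0.24 (adjusted p = 0.0406, and 0.0572 with the block). An intronic DHS of 1700113H08Rik came second (-1.54, -1.38 and -1.70) and was not called at 0, 2 or 6 h. It read 5.31, 4.95 and 4.05 in Control and 5.00, 4.56 and 4.88 in Ikaros at 0 h (0.04 ± 0.37), and 5.89, 4.64 and 5.19 against 3.71, 4.10 and 4.25 at 6 h (-1.22 ± 0.37, adjusted p = 0.121). The spread between its Control replicates exceeded 1 log2 unit at both times. The members near Gpx5 and Xpr1, described above and called at 6 h, were also among the first 10. The remaining 6 lay near Stc2, Mlec and Zfp397, at the promoters of Hist1h4j and Prkag2, and in an intron of Gm47283 on chromosome Y, in a region of repeats with several near-identical copies where read placement is uncertain. None of these 6 was called at 2 or 6 h, and their differences at 6 h were between -1.0 and -0.71.

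Among promoters with a coding TSS within 1000 bp, Mxd3, which encodes a Max-binding antagonist of Myc, read 6.02, 4.40 and 5.49 in Ikaros and 5.45, 5.30 and 4.46 in Control at 0 h (0.24 ± 0.32). It read 4.76, 4.68 and 4.87 against 6.02, 5.54 and 5.97 at 6 h (-1.08 ± 0.32, adjusted p = 0.12). The values overlapped at 0 h and not at 6 h, without passing the test. The promoters of Gadd45gip1, Efcab2, Rnf150 and 9130213A22Rik (the last within Hes7) had 6 h differences of -0.95, -1.16, -0.35 and -0.37 with adjusted p from 0.079 to 0.671.

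Gene lists of the pre-B stage accounted for 16 members (2.87%, against 1.91% of all DHS on list genes). None of the 1007 list DHS was called lower at 2 or 6 h, where 0.0246% and 0.155% of all DHS were. Such low shares leave few calls to be found, so no conclusion is drawn from their absence. Some list DHS were called higher in Ikaros at 2 and 6 h. These were 5 and 11 of B-lineage transcription factors, 1 and 2 of adhesion and migration and 1 and 1 of progenitor and myeloid genes. Over all DHS, 90 and 223 were called higher. The genes of Il7 receptor signalling, which drives division of large pre-B cells, had 4 members among their 80 DHS (5.00%), at Cish, Jak1, Pim1 and Socs2. Glycolysis and nutrient uptake had 4 of 111 (3.60%), at Eno1, Txnip and Slc3a2 (2 members), the last of which encodes the heavy chain of the large amino acid transporter. The pre-B receptor list had 2 of 116 (Cd24a and Plcg2), the cell cycle and Myc list 2 of 116 (Ccnd2 and Mycn), the B-lineage transcription factors 3 of 343 (1 at Foxo3 and 2 at Pax5) and adhesion and migration 1 of 112 (Icam1). No member lay at the 63 DHS of progenitor and myeloid genes or the 66 of T lineage and Notch genes. Over all 52788 DHS the member share was 1.06%, and with 0 to 4 members a list these counts are a description.

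The Mycn promoter lay 2 bp from the TSS of a Myc family gene that promotes growth. Its Control values were 5.29, 4.05 and 5.31 at 0 h, 5.79, 5.67 and 5.26 at 2 h and 5.52, 5.38 and 5.72 at 6 h. The Ikaros values were 5.20, 4.74 and 4.72, then 4.69, 4.55 and 4.39, then 4.60, 4.27 and 4.62. Apart from the low Control replicate 5 at 0 h, the Control line was above the Ikaros line in every library, and the difference was 0.00 at 0 h, -1.03 ± 0.30 at 2 h (adjusted p = 0.152) and -1.04 ± 0.30 at 6 h (adjusted p = 0.104). The Ccnd2 promoter, at the gene for cyclin D2, read 5.70, 5.86 and 5.90 in Control and 5.48, 4.81 and 5.09 in Ikaros at 6 h (-0.69 ± 0.21, adjusted p = 0.125). No overlap was seen, and at 0 h the difference was 0.17. At the Pax5 promoter, which belongs to the factor that commits cells to the B lineage, the 6 h values were 6.12, 6.15 and 5.71 in Control and 5.46, 5.70 and 5.68 in Ikaros (-0.38 ± 0.19, adjusted p = 0.391). A second Pax5 DHS at 6428 bp from the TSS differed by -0.63 ± 0.24 (adjusted p = 0.228). Neither passed the test, and by its mean level over all libraries the Pax5 promoter was at the 98.6th percentile of all DHS.

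Among the metabolic genes, the Slc3a2 DHS over the TSS (chr19:8712912-8713089) read 6.05, 5.88 and 5.77 in Control and 5.32, 4.95 and 5.09 in Ikaros at 6 h (-0.78 ± 0.20, adjusted p = 0.0589), after -0.07 at 0 h. The groups were apart at 6 h and the test was narrowly missed. The second Slc3a2 member (chr19:8713130-8713643), at 145 bp from the TSS, had differences of 0.59, -0.40 and -0.09 at 0, 2 and 6 h. The DHS with Eno1, a glycolytic enzyme gene, as its nearest coding gene at 17175 bp had a difference of 0.06 at 0 h and -0.89 ± 0.26 at 6 h (adjusted p = 0.115). The DHS near Txnip, which encodes an inhibitor of glucose uptake, stood at -0.52 ± 0.40 and -0.73 ± 0.40 (adjusted p = 0.423), with 1 Ikaros library of 0 h at 2.90 and the others at 5.40 and 4.95. For Il7 receptor signalling the 6 h differences were -0.43 near Cish, an inhibitor of Stat5, -0.92 near Pim1, a survival kinase of the Stat5 pathway, and -0.06 at a DHS 55445 bp from Jak1, with adjusted p of 0.606, 0.15 and 0.95. The Pim1 DHS also differed by 0.33 at 2 h, in the other direction, and by -0.75 at 0 h, so it followed no steady course. The remaining members on list genes were assigned to Cd24a (126494 bp from its TSS), Foxo3 (88258 bp, in an intron), Plcg2 (26824 bp) and Icam1 (promoter). Their 6 h differences were -0.54, -1.06, -0.77 and -0.20, and none was called. The Foxo3 DHS stood at -0.61 at 0 h, with 1 Ikaros library at 2.07 and the others at 3.73 and 4.05.

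The sequences of the members were searched for 14 motifs in the central 150 bp, on both strands, spelled as above. The Ikaros core TGGGAA was found in 89 members (16.0%) and in 13.1% of all DHS, and between the GC quartiles of the members the shares were 15.4% and 15.2%. The EBF palindrome (TCCC and GGGA with 2 bases between them, which can share bases with the Ikaros core) was found in 34 members (6.10%) and in 2.50% of all DHS, and within that GC range in 5.73% and 3.43%. Outside promoters it was in 7.02% of members and 2.91% of DHS, and in DHS over 200 bp in 13.2% and 2.18%. Among DHS of 200 bp or less, which held 421 of the members, the shares were 3.80% and 2.87%. Its centre lay a median of 6.5 bp from the middle of the member, and 13.0 bp in all DHS with a match inside the DHS. Members with the palindrome had median differences of 0.01, -0.53 and -0.68 at 0, 2 and 6 h, and those without it -0.07, -0.50 and -0.60. In all DHS with the palindrome the medians were -0.09, -0.01 and -0.03. Of the 34 members, 7 were at least 50% repeat-masked, the 4930470P17Rik intron among them.

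Over the whole set, other motifs differed less from all DHS. AP-1 was in 7.36% of members and 4.99% of all DHS, but in 5.02% and 5.25% within the same GC range. The Ets core GGAAGT was in 16.2% and 19.7%, the E-box CAGCTG in 12.7% and 11.9%, the Runx motif in 16.3% and 18.3%, the Sp/Klf box in 12.2% and 14.5% and the CCAAT box in 16.7% and 18.3%. At promoters the Sp/Klf box was in 20.1% of members and 41.7% of DHS, and outside them in 9.44% and 5.04%. It was in 7.32% of all DHS of 200 bp or less. The CTCF core CCACNAGG was in 7.72% and 9.96%, the NRF1 motif GCGCATGC in 0.718% and 1.34% and the CRE motif TGACGTCA in 0.539% and 0.915%. A match describes letters in a window, and no binding was measured here.

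Within each line the members moved in opposite directions, but single members rarely passed a test from 0 to 6 h. As stated above, time, drug and the separate collection of the 0 h cells cannot be told apart in these changes. From 0 to 6 h the median change over the members was -0.28 in the Ikaros line (0.02 over all DHS) and 0.25 in the Control line (-0.01 over all DHS). In the Ikaros line no member was called lower at 6 h than at 0 h by limma, with 0% of all DHS called. An unadjusted p under 0.05 was reached by 96 members (17.2%) against 2.99% of all DHS. When libraries were weighted by their quality, 5 members were called (0.0587% of all DHS). In the Control line 2 members were called higher at 6 h (0.00758% of all DHS), the Lzts2 promoter (1.55 ± 0.29 SE, adjusted p = 0.0396) and an intronic DHS with Snx32 as its nearest coding gene (0.76 ± 0.14, adjusted p = 0.0396), and 102 members (18.3%, against 6.62% of all DHS) had an unadjusted p under 0.05. Both were named after their values were seen. The Lzts2 promoter read 3.97, 3.01 and 2.52 at 0 h and 4.82, 4.41 and 4.91 at 6 h in Control, without overlap. With the replicate block neither was called, and without Control replicate 4 of 0 h 26 members were (0.930% of all DHS). The change of the line difference from 0 to 2 h was called lower in 2 members (0.0474% of all DHS), at Rasal1 and near Stk11. With the block it was called in 1, and the share over all DHS was not computed. From 0 to 6 h it was called in none, with 161 members (28.9%, against 6.20% of all DHS) in the lower direction at an unadjusted p under 0.05. The shares in this paragraph too are not fully independent of the rule.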

How the data were processed

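DNase-seq was measured in 36 libraries. According to the methods and labels, the authors trimmed the 43 bp paired reads to 36 bp, aligned them with Bowtie2 (build mm10), used HOMER to call peaks of narrow and broad width in each replicate (FDR of 1%), merged them into consensus DHS, counted reads with bedtools, removed low DHS, scaled by RPKM and TMM and removed structured noise with ARSyN. The deposited values are log2 levels after these steps, so they are not counts. The depth of each library is unknown beyond a stated minimum, and the number of libraries limits the precision. Start and end are printed as deposited, and whether starts count from 0 or 1 is not given in the sources used here.

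Groups, replicates and batches came from the labels. The members, gene lists and motifs were chosen with earlier results of these data known. Differences at 0, 2 and 6 h and changes within lines were tested over all DHS with limma 3.58.1 in R 4.3.3 (12 group means, empirical Bayes with trend, two-sided, Benjamini-Hochberg, threshold 0.05). SE are those of the fit. On simulated data for the 6 h contrast, 159 of 200 DHS changed by -2 on the log2 scale were recovered among 52788, with 7 false calls. That change was larger than the 6 h difference of any member (lowest -1.68, median -0.61). The simulated errors were also independent, unlike the filtered values. Recovery at the sizes reported here was not measured. The places of DHS came from GENCODE vM21 and their bases from GRCm38.p6. Named members were the 10 lowest at 12 to 24 h, up to 10 promoters, up to 15 on list genes, the 5 lowest p-values at 2 and at 6 h, and up to 6 genes with 3 or more members, and any other name was chosen after its values were seen. Replicate numbers pair libraries by batch label. Libraries of the same number deviated from their group means with a median correlation of -0.010 (198 pairs, from -0.33 to 0.34, 24 over 0.1). For those of different numbers it was 0.0079 (396 pairs, from -0.34 to 0.27, 60 over 0.1). The authors' filter had already removed structured noise, so these correlations cannot show whether the pairing mattered. The batch term is an alternative, besides other scalings, thresholds and left-out libraries. Some named items are not reported here.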

Additional observations from a re-analysis of the deposited data

Results flagged for a closer look

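For 2 members the difference between the lines changed from 0 h to 2 h by a test of the change itself (limma, Benjamini-Hochberg over 52788 DHS). At the Rasal1 promoter (chr5:120648583-120649189) the line difference passed from 0.90 to -0.56, a change of -1.46 ± 0.25 (SE, adjusted p = 0.0208, and 0.0353 with the replicate block). The Ikaros libraries read 5.88, 5.19 and 5.45 at 0 h and 4.73, 4.62 and 4.54 at 2 h, while the Control libraries read 4.60, 4.59 and 4.63, then 5.53, 4.85 and 5.19. The groups were apart at both times, in opposite order. At a DHS 1044 bp from the Stk11 TSS (chr10:80114673-80114759) the difference passed from 0.61 to -0.94, a change of -1.56 ± 0.32 (adjusted p = 0.0448, and 0.0643 with the block). Its Control values were 6.50, 5.70 and 5.41 at 0 h and 7.18, 6.62 and 7.21 at 2 h, and its Ikaros values 6.62, 6.03 and 6.79, then 6.34, 6.06 and 5.77. The 0 h cells were collected apart from the others, and its part in these changes was not tested.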

How the results depend on the processing

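The rule gave 1143 members at -0.5, 113 at -0.8, 1084 after quantile normalization (359 shared with the 557), 861 with trends by GC content, width and level removed, and 430 to 711 with 1 replicate number left out (49.2% to 70.6% of the 557 kept). The promoter share was 18.3% at 500 bp and 35.2% at 2000 bp from a TSS (22.2% and 31.0% of all DHS). Trend removal and single left-out libraries were chosen after seeing the data. Against 26 members called lower at 0 h (5.04% of all DHS), 0 were called with only the groups of the contrast (0%). Libraries shifted to one median gave 15 (3.28%) and sample weights 15 (2.58%). Leaving out the 12, 18 and 24 h groups gave 12 (1.27%), and trend removal 11 (1.44%). With replicates or single libraries left out, 8 to 34 were called (1.19% to 6.15%). Without Control 0h replicate 4 or 6 the counts were 13 and 14 (2.64% and 1.37%). Against 9 at 2 h (0.0246%), 3 were called with the replicate block (0.00947%), 0 with only its groups (0%) and 3 after quantile normalization (0.00568%). The median shift gave 5 (0.0152%), weights 2 (0.00568%), DHS above the median level 3 (0.0189%), leaving out the later groups 0 (0%) and trend removal 5 (0.0152%). With libraries left out, 1 to 31 were called (0.00189% to 0.163%). Without Control 2h replicate 5 or 6 the counts were 31 and 17 (0.163% and 0.0834%). Without Ikaros 2h replicate 4, 5 or 6 they were 1, 2 and 2 (0.00189%, 0.00379% and 0.00568%). Against 42 at 6 h, 6 were called with only its groups, 27 after quantile normalization, 91 with weights, 3 without the later groups and 25 with trends removed, and 0 to 42 with libraries left out (0 without replicate 6 of all groups, 23 without Control 6h replicate 5, 15, 9 and 9 without Ikaros 6h replicate 4, 5 or 6). Within Ikaros, weights gave 5 in place of 0 (0.0587% and 0% of all DHS), and no library left out gave any member. Within Control, the main count was 2 (0.00758% of all DHS). It was 0 (0%) with the replicate block, only its groups, quantile normalization or weights. It was also 0 (0%) with DHS above the median, the later groups left out or trends removed. With libraries left out, 0 to 43 were called (0% to 2.14%). Without Control 0h replicate 4 the count was 26 (0.930%). Without Control 0h replicate 5 or 6 or Control 6h replicate 5 or 6 it was 0 (0%). The cause was not tested. Of 459 repeats of 27 calls at single named members, 267 kept their call, 192 lost it and none changed sign.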
